A study of Mus musculus with 150 samples.

Results

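The 47 genes described here serve 1 task, the entry of newly made proteins into the endoplasmic reticulum (ER) and their folding there. They were listed by name and were looked up in the bulk and single-cell tables of a mouse lung study. All 47 had a row in the bulk table, which holds 24341 genes, and in both single-cell tables, which hold 31175 genes beside the spike-ins. By role, 5 act in targeting, 10 at the translocon, 9 in signal peptidase or oligosaccharyltransferase, 15 as chaperones or folding enzymes and 8 in stress sensing or the response to it. The list was selected on measured values: Selk and Ssr3, 2 of its members, had been seen among the larger differences between the single-cell chips, and other genes of the same task were added to them. The chip differences below are therefore a description of what led to the choice, and the bulk libraries are a separate set of samples.

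A protein bound for secretion is recognised by the signal recognition particle as its signal sequence leaves the ribosome, and is handed to the Sec61 channel, the translocon. Signal peptidase then cuts off the signal sequence, oligosaccharyltransferase adds a sugar tree, and chaperones such as BiP and calnexin hold the chain while disulfide isomerases join its cysteines. When unfolded chains build up, the sensors Ern1, Eif2ak3 and Atf6 switch on the unfolded protein response, which raises chaperone production and slows translation. Club cells of the airway and type 2 cells of the alveoli both secrete large amounts of protein, the secretoglobin Scgb1a1 in the former and surfactant proteins such as Sftpc in the latter.

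The study asked how lung progenitor cells behave when p53, the transcription factor that Trp53 encodes, is lost. In bulk there were 3 libraries of wild-type mice (replicates 1, 5 and 6) and 3 of knockout mice (replicates 7, 8 and 10), all aged 8 to 12 weeks. Mice of both genotypes carried Scgb1a1-CreERTM, a Cre recombinase that tamoxifen activates in Scgb1a1-expressing cells, and the reporter Rosa26-mT/mG, which turns recombined cells green; wild types were p53+/+ and knockouts p53flox/flox, although the genotype label of the latter reads p53-/-. Green, EpCAM-positive cells lacking CD31, CD34, CD45 and the dead-cell stain 7AAD were sorted, 70 days after tamoxifen per the protocol and at day 30 per the titles. Both genotypes were thus exposed to Cre and tamoxifen. The single cells were captured on Fluidigm C1 chips, labelled wild type or p53-/-; the labels do not give the number of chips, and the cells of each genotype, deposited as 1 table, are treated as 1 chip. Mice received tamoxifen at 250 mg/kg; the labels name floxed and p53-/- crosses together, give no age and do not say whether the cells were fresh or cultured. After wells with a debris or valve remark and cells with fewer than 1000 detected genes were left out, 66 wild-type cells and 61 cells labelled knockout remained.

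The labels were checked on Trp53, which lies on chromosome 11. Its bulk level was 16.6, 22.2 and 21.7 FPKM in wild-type replicates 1, 5 and 6, and 8.63, 9.98 and 7.56 FPKM in knockout replicates 7, 8 and 10, without overlap. The log2 fold change was -1.12 (SE 0.149, limma adjusted p = 0.144 over 11957 tested genes). On the chips the order was the opposite: Trp53 reached 1 TPM in 4 of the 66 cells of the wild-type chip (6.06%, exact 95% interval 1.68% to 14.8%) and 16 of the 61 labelled knockout (26.2%, 15.8% to 39.1%). Since this goes against the labels, cells of the second chip are called "labelled knockout" throughout; whole-gene values cannot separate deleted from remaining exons. Wild-type replicate 1 stood apart in cell makeup: its mean log2 level over the club list was 8.81, against 9.80 to 10.3 in the other 5 libraries. Over the alveolar type 2 list it was at 10.04. The other wild types, at 9.06 and 9.12, also lay above the knockouts on that list, at 8.70 to 8.84. All 10 type 2 markers tested had negative fold changes, with a median of -0.574. Ciliated markers were at 4.84 in wild-type replicate 1, near the 4.75 to 5.51 of the knockouts and above the 3.18 and 3.09 of the other wild types. Immune markers ranged from 2.84 to 3.24 in wild type and from 1.97 to 2.47 in knockout. The part of these shifts in the members' values was not tested, and in bulk samples fewer cells of a type and less RNA per cell cannot be told apart.

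Several members are textbook targets of the unfolded protein response, and some of their promoters carry the letters that its factors are known to read. RefSeq windows of the GRCm38.p6 build, from 250 bases before to 50 bases after the start site, were found for 38 of the 47 members. The ER stress response element was searched on both strands as CCAAT, any 9 bases and CCACG, and a second form of it as ATTGG, any 1 base and CCACG. The first was present in 7 of the 38 windows, all of chaperones or folding enzymes (Hspa5, Hsp90b1, Pdia6, Calr, Canx, Dnajc3 and Creld2), that is 18.4%, against 37 of 27025 genes (0.137%). The second was in the windows of Dnajb11 and Herpud1 (5.26%, against 0.0444% of genes). TGACGTGG, a core that XBP1 binds, and TGATGCAAT, an amino acid response element, were in 0 of the 38 windows and in 0.714% and 0.222% of genes. Shown are 3 chaperone windows and the Herpud1 window with the fixed letters of the element in capitals, then the window of Selk, the member that differed most between the chips, which holds none of the 4 motifs. Capitals on the opposite strand read as the reverse complement, CGTGG and ATTGG, as at the second element of Hsp90b1.
Hspa5 (chr2:34771840-34772139, plus strand): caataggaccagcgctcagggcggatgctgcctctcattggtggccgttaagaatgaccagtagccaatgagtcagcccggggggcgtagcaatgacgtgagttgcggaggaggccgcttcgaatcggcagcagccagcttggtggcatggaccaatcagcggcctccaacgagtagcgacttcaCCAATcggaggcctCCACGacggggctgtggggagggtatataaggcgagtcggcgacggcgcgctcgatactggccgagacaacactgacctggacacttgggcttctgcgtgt
Hsp90b1 (chr10:86705395-86705694, minus strand): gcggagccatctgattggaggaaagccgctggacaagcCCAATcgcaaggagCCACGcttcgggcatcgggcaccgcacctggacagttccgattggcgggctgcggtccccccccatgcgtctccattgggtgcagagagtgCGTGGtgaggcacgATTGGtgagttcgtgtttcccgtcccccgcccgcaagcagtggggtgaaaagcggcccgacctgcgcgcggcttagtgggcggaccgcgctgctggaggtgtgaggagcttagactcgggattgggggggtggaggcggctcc
Canx (chr11:50325624-50325923, minus strand): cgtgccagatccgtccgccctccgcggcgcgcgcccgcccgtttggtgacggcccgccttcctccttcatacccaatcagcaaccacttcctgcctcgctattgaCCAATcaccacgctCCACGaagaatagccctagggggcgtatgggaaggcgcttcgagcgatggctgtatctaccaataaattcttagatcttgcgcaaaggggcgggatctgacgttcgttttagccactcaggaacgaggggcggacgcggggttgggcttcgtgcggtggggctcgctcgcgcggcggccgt
Herpud1 (chr8:94386179-94386478, plus strand): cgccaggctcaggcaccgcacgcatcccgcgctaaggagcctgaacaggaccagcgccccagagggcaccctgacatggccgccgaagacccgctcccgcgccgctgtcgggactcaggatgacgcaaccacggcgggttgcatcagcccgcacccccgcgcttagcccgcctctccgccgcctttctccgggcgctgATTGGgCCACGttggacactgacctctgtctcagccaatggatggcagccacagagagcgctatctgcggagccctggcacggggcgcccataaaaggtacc
Selk (chr14:29968130-29968429, plus strand): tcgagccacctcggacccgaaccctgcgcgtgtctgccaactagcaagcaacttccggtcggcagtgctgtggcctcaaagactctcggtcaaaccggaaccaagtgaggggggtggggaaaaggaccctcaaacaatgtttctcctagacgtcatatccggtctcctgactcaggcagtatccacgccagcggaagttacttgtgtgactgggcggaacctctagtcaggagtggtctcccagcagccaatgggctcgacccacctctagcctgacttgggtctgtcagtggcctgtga
With the start site counted as 0, the element lies from -65 to -47 in Hspa5, from -145 to -127 in Canx and from -52 to -42 in Herpud1. Hsp90b1 has 2, from -212 to -194 and from -107 to -89. The motifs were chosen as known elements of this response, and textbook targets of it are among the members. The larger shares of the ER stress elements are therefore no independent result. A match describes letters only, and binding was not measured.

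Levels in bulk differed far more between members than between libraries. The folding enzymes of the lumen were at the top. P4hb, a protein disulfide isomerase, was at 374, 412 and 397 FPKM in the wild types and 389, 390 and 437 in the knockouts. Hspa5, which encodes BiP, was at 417, 381 and 341 FPKM in the wild types and 385, 371 and 380 in the knockouts. These libraries overlapped for both genes, and the wild-type libraries spanned more than the knockouts for Hspa5. Among the listed signal peptidase and oligosaccharyltransferase genes Dad1 was highest, at 219, 274 and 364 FPKM in the wild types and 268, 312 and 315 in the knockouts. Sec61b, the small tail-anchored subunit of the channel, led the translocon with 168, 249 and 310 FPKM in the wild types and 184, 217 and 277 in the knockouts. In targeting, Srp14, which pairs with Srp9 on the signal recognition particle RNA, was at 156, 169 and 190 FPKM in the wild types and 160, 151 and 169 in the knockouts. The sensors were low by contrast: Ern1 (IRE1 alpha) lay between 4.07 and 5.66 FPKM, Atf6 between 7.43 and 11.4 FPKM and Eif2ak3 (PERK) between 11.1 and 16.1 FPKM over the 6 libraries. The lowest member was Srp54a, at 1.17 to 1.85 FPKM, whose near-identical copies Srp54b and Srp54c make its value uncertain.

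**Figure D1:**
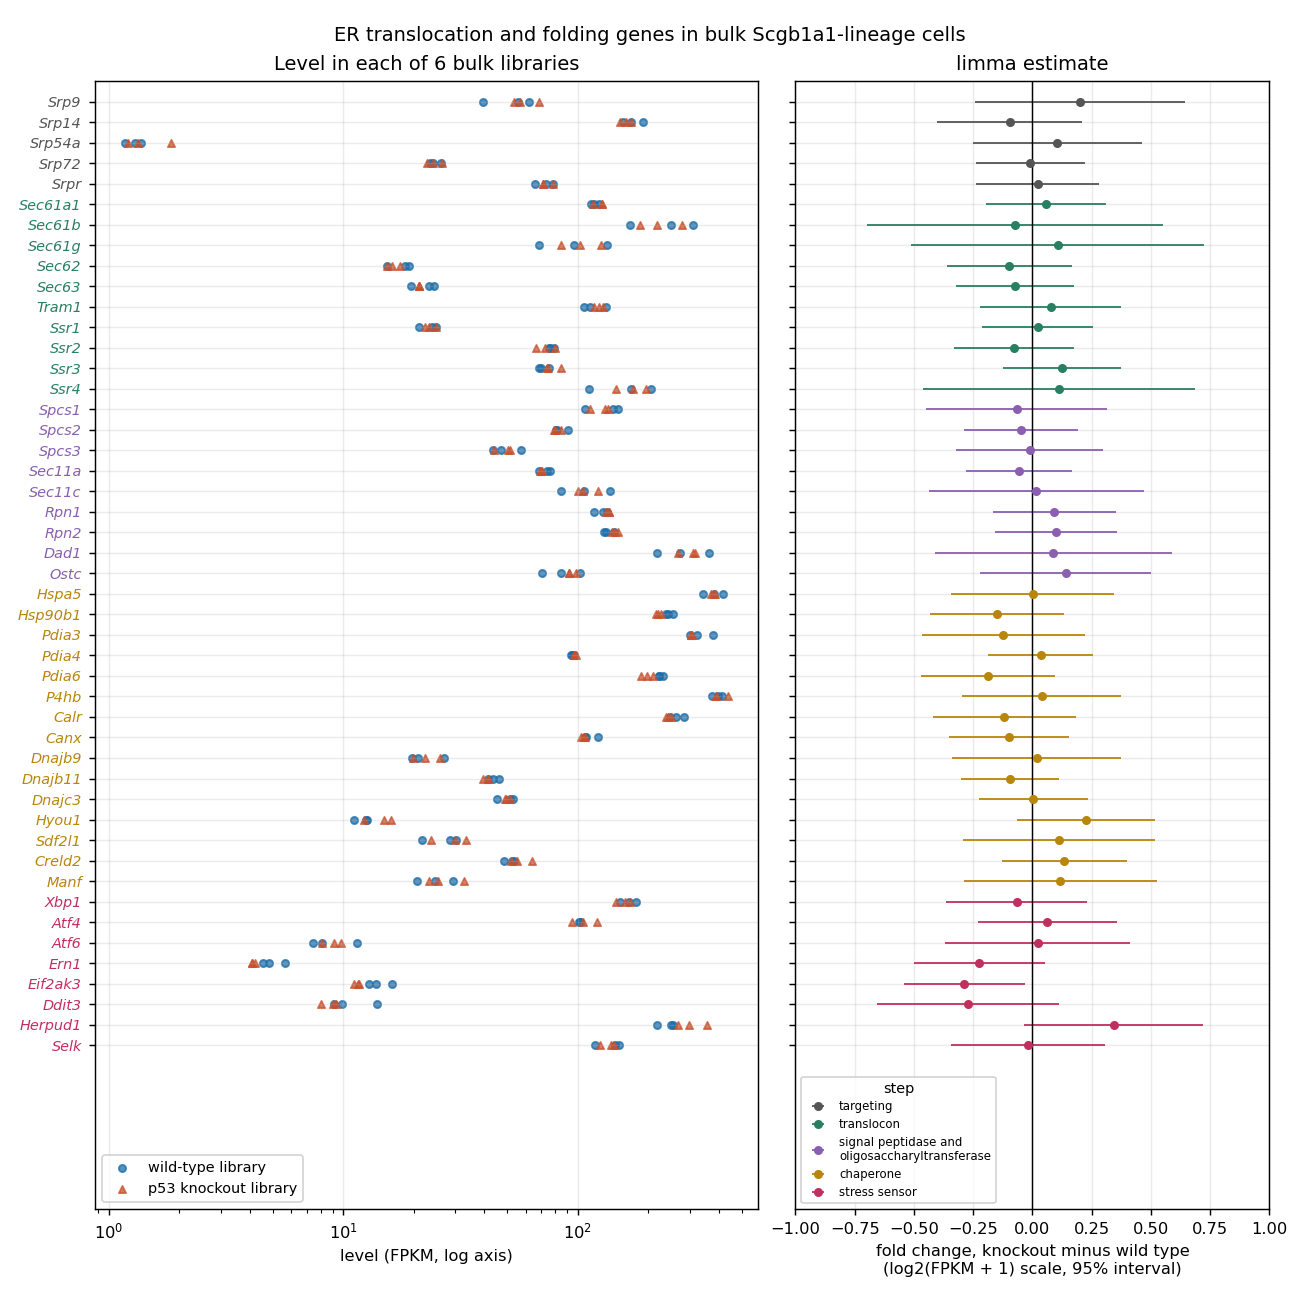
Left, the level of each of the 47 members in FPKM (log axis) in 3 wild-type (circles) and 3 knockout (triangles) libraries; right, the limma log2 fold change, knockout minus wild type, with its 95% interval, coloured by step. The intervals cross 0 for every member but Eif2ak3, and Sec61b, Sec61g and Ssr4 have the widest.

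No member passed the bulk genotype test. Of 47 members tested with limma, 0 had an adjusted p under 0.05, against 1 of 11957 genes (0.00836%). At an unadjusted p under 0.05 there was 1 member, Eif2ak3, against 13.1% of all genes; it was lower, as were 6.06% of all genes, and 0 members were higher, against 7.04%. Fold changes were positive for 26 members and negative for 21, with a median of 0.017 on the log2 scale; over all tested genes the median was 0.0078 and 51.5% were positive. They ran from -0.287 to 0.343, with Eif2ak3 and Herpud1 at the ends. Libraries did not overlap between genotypes for 7 members, against 19.3% of all genes: Herpud1 and Pdia4 were higher in knockout (9.04% of all genes), and Hsp90b1, Pdia6, Canx, Ern1 and Eif2ak3 lower (10.2%). Without wild-type replicate 1 the non-overlapping members were 15 (31.9%), and the share of all genes rose as well, to 35.6%.

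The stress arm held both ends of the range. Herpud1, a membrane protein of ER-associated degradation on chromosome 8 (94386500 to 94395358, mm10), was at 254, 219 and 249 FPKM in the wild types and 297, 267 and 356 in the knockouts. All 3 knockout libraries lay above all wild types, knockout replicate 8 and wild-type replicate 1 being the closest. Its log2 fold change was 0.343 (SE 0.159, limma adjusted p = 0.413). Eif2ak3, the kinase that slows translation by phosphorylating eIF2 alpha, on chromosome 6 (70844527 to 70905240, mm10), was at 16.1, 13.7 and 12.8 FPKM in the wild types and 11.5, 11.1 and 11.7 in the knockouts. Here the knockouts lay below and close together, and wild-type replicate 1 was the highest. Its log2 fold change was -0.287 (SE 0.108, limma adjusted p = 0.351). Ern1 had a fold change of -0.22 and Ddit3, which encodes the transcription factor CHOP, one of -0.27, with knockout values of 9.07, 9.33 and 8.06 FPKM against 9.87, 9.17 and 14.0 FPKM. Xbp1 and Atf4, the factors downstream of Ern1 and Eif2ak3, were at -0.067 and 0.062.

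Among the chaperones, Hyou1 and Pdia6 had the smallest unadjusted p. Hyou1 (Grp170), which exchanges nucleotide on BiP, was at 12.7, 11.1 and 12.6 FPKM in the wild types and 14.97, 16.01 and 12.2 in the knockouts, with knockout replicate 10 inside the wild-type range. Its log2 fold change was 0.226 (SE 0.123, limma adjusted p = 0.478). Pdia6, a disulfide isomerase, was at 223, 231 and 223 FPKM in the wild types and 198, 210 and 187 in the knockouts, a log2 fold change of -0.188 (SE 0.120, limma adjusted p = 0.546). Of the 7 members with an ER stress response element in the window above, Hsp90b1, Pdia6, Calr and Canx had estimates between -0.19 and -0.098, Hspa5 and Dnajc3 were at 0.0016 and 0.0043, and Creld2 was at 0.135.

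The entry steps had small fold changes. Step medians were 0.021 for targeting, 0.040 for the translocon and 0.017 for signal peptidase and oligosaccharyltransferase, and 0 members of these steps had non-overlapping libraries. The named ones were Srp9 (0.201, SE 0.187), Srp14 (-0.096, SE 0.129), Ssr3 (0.125, SE 0.105), Sec62, which aids import after translation (-0.097, SE 0.111), Ostc, the subunit that docks oligosaccharyltransferase on the translocon (0.140, SE 0.152), and Rpn2 (0.0997, SE 0.109). Their limma adjusted p-values were 0.659 or higher. The 95% interval of Ssr3 ran from -0.123 to 0.373 and that of Sec61b from -0.697 to 0.550, so the smaller spread of Ssr3 limits a difference more tightly.

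Several members varied widely between libraries of 1 genotype. Sec61g was at 68.1, 96.4 and 133 FPKM in wild-type replicates 1, 5 and 6 and at 85.0, 103 and 125 FPKM in knockout replicates 7, 8 and 10; Ssr4, the delta subunit of the translocon-associated complex, was at 111, 168 and 205 FPKM and at 146, 171 and 195 FPKM. Both were lowest in wild-type replicate 1 and highest in wild-type replicate 6. Across the 47 members, the log2 ratio of replicate 6 to replicate 1 had a Spearman correlation of -0.665 with the length of the longest annotated coding transcript (-0.392 across 10572 genes). The same measure for knockout replicates 10 and 7 was -0.324 (-0.241 across 10664 genes). Genes are not independent replicates, and the part of length in the members' values was not tested.

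A further 110 genes of the pathway, none of them members, gave a like picture. Of 108 tested, 0 passed limma's adjusted threshold, against 0.00836% of all genes. Fold changes were positive for 63 and negative for 45, and 51.5% of all genes were positive. At an unadjusted limma p under 0.05 there were 5 in each direction, against 7.04% of all genes higher and 6.06% lower. Of 20 ER-to-Golgi transport genes 17 were above 0 in fold change (median 0.1002). Other stress response genes were lower in 11 of 16 cases, with a median of -0.084. The remaining lists were nearer even, with 12 of 20, 8 of 15, 11 of 19 and 10 of 18 tested genes positive. The smallest p-values were those of Bbc3, Trib3 and Srp54c. Bbc3, a known p53 target that encodes Puma, a protein promoting apoptosis, was at 9.80, 12.2 and 11.7 FPKM in the wild types and 4.35, 4.90 and 5.29 in the knockouts (log2 fold change -1.06, SE 0.122, limma adjusted p = 0.110). Trib3, a pseudokinase induced downstream of Atf4 and Ddit3, was at 7.05, 6.49 and 5.59 FPKM and at 2.93, 3.14 and 3.55 FPKM (-0.807, SE 0.127, limma adjusted p = 0.180). Both were lower in every knockout library, at low levels. Srp54c was at 3.90, 3.44 and 2.96 FPKM and at 5.75, 5.17 and 4.86 FPKM (0.501, SE 0.130, limma adjusted p = 0.308), with the limit named for Srp54a. With array weights, which count libraries that stand apart for less, the limma adjusted p-values were 0.0058, 0.0154 and 0.0261 in this order, when 7.64% of all genes and 0 members passed. Without wild-type replicate 1 they were 0.0098 for Bbc3 and 0.0339 for Trib3, when 3.41% of all genes and 0 members passed. When each library was left out in turn, the limma adjusted p-values reached 0.435 for Bbc3 and 0.532 for Trib3. Those of Srp54c ran from 0.0708 to 0.577.

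On the chips nearly all members were higher in cells labelled knockout. With 1 chip per genotype there is no replicate and no test; genotype, chip and depth cannot be told apart. The difference of mean log2(TPM + 1), taken as the chip labelled knockout minus the wild-type chip, was positive for 46 of 47 members, with a median of 0.978, while it was positive for 76.1% of 9486 genes, with a median of 0.245. By size, a difference of at least 1 with detection (a TPM of at least 1) in at least 30% of the higher cells, 22 members were higher and 0 lower, against 7.8% and 0.116% of all genes. Srp14 (1.07) was the last member inside that limit and Rpn2 (0.993) the first outside. Detection was more frequent for 44 members and mean TPM higher for 40. In genes detected in 30% to 90% of all cells, 38 members had a median of 1.17 against 0.425, and 21 were higher by size against 17.9% of 3380 genes, with 0 lower against 0.266%.

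**Figure D2:**
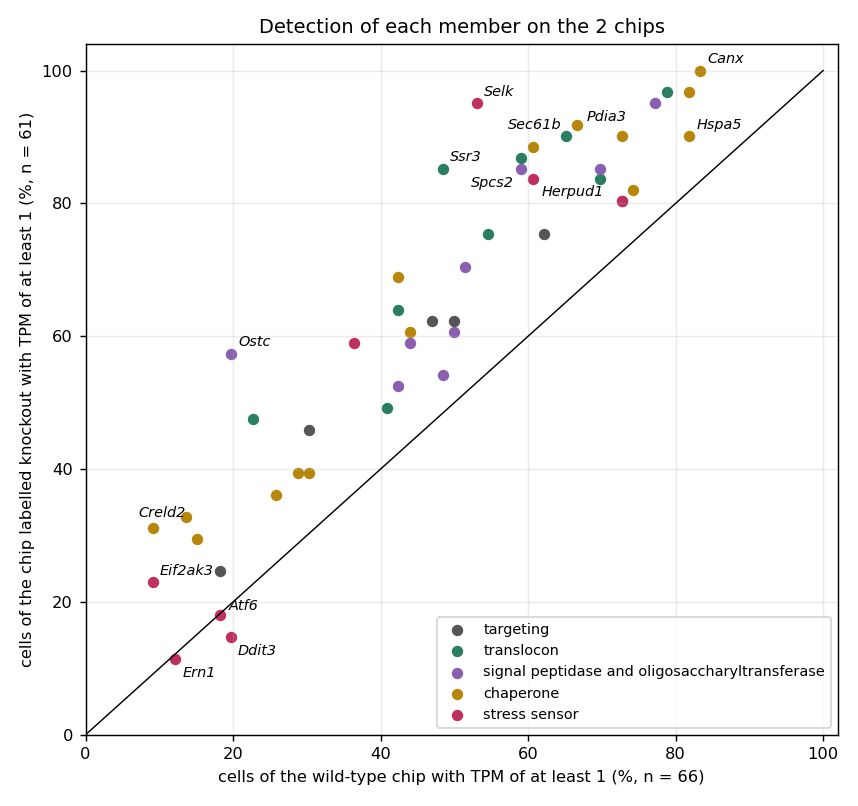
Share of cells with a TPM of at least 1 for each member, on the wild-type chip (x axis, 66 cells) and the chip labelled knockout (y axis, 61 cells), in percent; the line marks equal shares. Points lie above the line for 44 of 47 members, with Selk, Ostc and Ssr3 among those farthest from it. The share of all genes above the line was not computed.

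Among targeting genes all 5 differences were positive, from 0.290 to 1.07, and only Srp14 passed the size limit. Srp14 had a median of 10.8 TPM (0 to 1018) in wild-type cells and 61.4 TPM (0 to 844) in cells labelled knockout. Srp9 ran the other way on the linear scale: its mean was 47.9 TPM in wild type and 32.1 TPM in cells labelled knockout, although it was detected in 46.97% and 62.3% of them. Srpr, the receptor for the signal recognition particle, had medians of 0.965 and 5.36 TPM and a difference of 0.767. The step's median difference was 0.603, against 0.245 for all genes.

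Translocon genes had a step median of 1.21, close to the 1.19 of the chaperones, and all 10 were positive. The step includes Ssr3, whose chip difference was among those that led to the list. Ssr3, the gamma subunit of the translocon-associated complex, had a median of 0.730 TPM (0 to 469) in wild type and 65.9 TPM (0 to 501) in cells labelled knockout, and was detected in 32 of 66 (48.5%, exact 95% interval 35.99% to 61.1%) and 52 of 61 cells (85.2%, 73.8% to 93.0%). Its mean log2(TPM + 1) was 2.66 ± 3.01 and 5.35 ± 2.73 (SD over cells), a difference of 2.69. Ssr3 thus went undetected in most wild-type cells and was detected in most cells labelled knockout, though the highest cells of both chips were alike. Absence of the transcript and failure to detect it cannot be told apart here. Sec61b had medians of 52.8 TPM (0 to 1041) and 205 TPM (0 to 1556), a difference of 2.14. Ssr4 had medians of 2.01 and 40.7 TPM, a difference of 1.43. The Sec62 and Sec61a1 differences were lower, at 0.289 and 0.775.

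Signal peptidase and oligosaccharyltransferase genes were positive for 9 of 9, with a median of 0.993. Ostc was found in 13 of 66 cells on the wild-type chip (19.7%, exact 95% interval 10.9% to 31.3%) and 35 of 61 on the other (57.4%, 44.1% to 69.96%), with means of 42.4 and 54.8 TPM. Detecting wild-type cells were few and high, with a median of 206 TPM among them, against 42.99 TPM among the detecting cells labelled knockout. Spcs2, a signal peptidase subunit, had medians of 6.07 TPM (0 to 212) and 26.4 TPM (0 to 257) and a difference of 1.58. Sec11c, one of its catalytic subunits, had a difference of 1.33.

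All 15 chaperones and folding enzymes had positive differences, from 0.086 for Dnajb9 to 2.21 for Pdia3. Canx, the membrane lectin chaperone calnexin, was the highest member per cell, with medians of 270 TPM (0 to 1786) and 398 TPM (1.09 to 1746), and was present in 55 of 66 (83.3%) and 61 of 61 cells. Pdia3, the isomerase that works with calnexin and calreticulin, had medians of 16.6 TPM (0 to 604) and 113 TPM (0 to 795). Hspa5 was already detected in 81.8% of wild-type cells and had a difference of 1.19, with means of 156 and 169 TPM. Its mean TPM was thus close on the chips, with fewer cells labelled knockout at or near 0.

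The stress genes split. Selk, which encodes selenoprotein K of the ER membrane, had medians of 9.66 TPM (0 to 813) and 163 TPM (0 to 563) and the largest difference of all members, 2.88. Herpud1 had medians of 3.14 TPM (0 to 734) and 118 TPM (0 to 1557), a difference of 2.48. Selk was detected in 35 of 66 and 58 of 61 cells and Herpud1 in 40 and 51, so that both went undetected in many wild-type cells and few of the others. The sensors stayed near the detection limit: Atf6 was detected in 18.2% and 18.0% of cells (difference -0.10, the 1 negative value), Ern1 in 12.1% and 11.5% and Eif2ak3 in 9.09% and 22.95%. Ddit3 was found in 19.7% and 14.8%. Xbp1 was detected more often in cells labelled knockout (36.4% and 59.02%) but its mean was lower, 38.9 against 29.5 TPM, with 1 wild-type cell at 1397 TPM.

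Detection depth moved with the chip. Kept cells had a median of 3130.5 genes (1201 to 5245) on the wild-type chip and 3580 (1819 to 5412) on the chip labelled knockout, and ERCC spike-ins took a median of 13.2% and 6.28% of TPM. Per cell, the median share of members detected was 50% on the wild-type chip and 65.96% on the other. That share rose with the number of other genes detected, with a Spearman rho of 0.748 over 66 wild-type cells and 0.612 over 61 cells labelled knockout; both axes come from the same cell's reads. In tertiles of depth the medians were 34.04% and 56.4% in the shallowest, 52.1% and 61.7% in the middle, and 63.8% and 72.3% in the deepest cells, wild type first. Cells labelled knockout were the higher in each tertile, although their cells were also deeper in the shallowest tertile (medians of 2530.5 and 2253 other genes) and the deepest (4230 and 4005). ERCC took less of their TPM in each tertile: 10.7% against 24.5%, 8.16% against 11.3% and 5.68% against 8.31%, from shallowest to deepest. One wild-type cell held 0 of 47 members, with 78.3% of its TPM in ERCC.

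**Figure D3:**
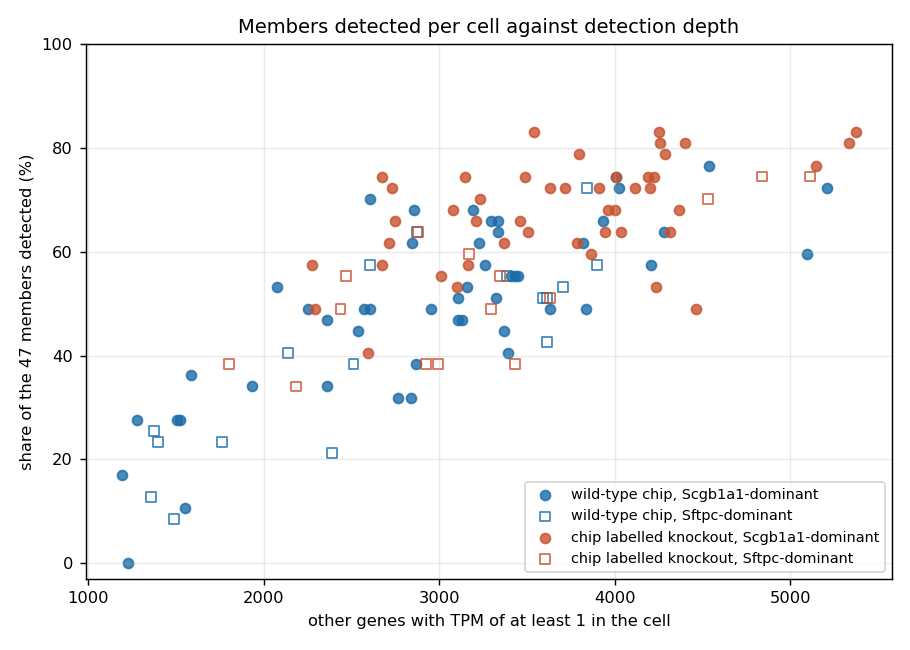
Share of the 47 members detected in each cell (%, y axis) against the number of other genes detected in it (x axis); circles are Scgb1a1-dominant and open squares Sftpc-dominant cells, blue for the wild-type chip and red for the chip labelled knockout. Both chips climb from left to right, and 31 of the 66 wild-type cells against 12 of the 61 cells labelled knockout lie in the shallowest tertile.

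With the number of other genes detected as a covariate, the members' median difference was 0.483, and that of all genes was 0.0063, with 50.8% positive. Values were positive for 38 members, with 0 lower by size, against 0.812% of all genes, and 8 higher, against 2%: Ssr3 (2.10), Selk (1.95), Herpud1 (1.87), Sec61b (1.62), Ostc (1.39), Pdia3 (1.35), Hsp90b1 (1.09) and Spcs2 (1.03). The chip differences of Ssr3 and Selk, which head these 8, were what led to the list. Members outside the 8 fell to different degrees. P4hb went from 1.16 to 0.120, Hspa5 from 1.19 to 0.294 and Srpr from 0.767 to 0.022, while Xbp1 went from 1.18 to 0.940. The middle tertile did not always give the same: there Hspa5 was at -0.414, P4hb at 0.00025, Srpr at 0.945 and Hsp90b1 at 0.072. Among the 22 wild-type cells and 21 cells labelled knockout of the middle tertile of depth the median was 0.349 (all genes -0.043), with 7 members higher and 2 lower by size, Srp9 (-1.05) and Sec11a (-1.21). Of all genes, 4.21% were higher and 4.27% lower by size in that tertile. Cell makeup was not matched there: 4 of its wild-type cells and 8 of those labelled knockout had more Sftpc than Scgb1a1 transcript. The part of this in the values was not tested. With each cell centred on its own mean log level, 10 members were higher and 0 lower by size, against 1.78% and 1.45% of all genes, and the median was 0.398 (all genes -0.335).

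**Figure D4:**
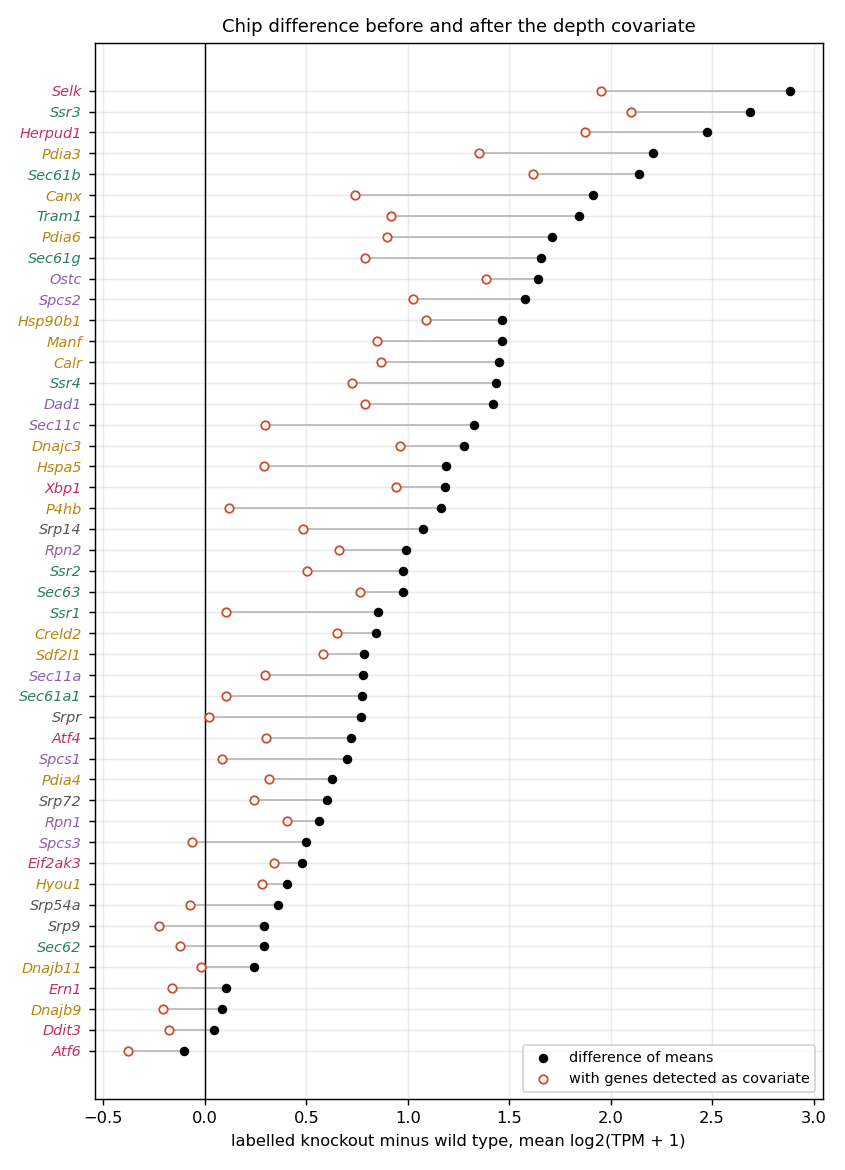
Difference in mean log2(TPM + 1) between the chips, labelled knockout minus wild type, for each member, as the plain difference (filled) and with the number of other genes detected as a covariate (open); names are coloured by step. Each open point lies left of its filled point, and those of Ssr3, Selk and Herpud1 stay farthest right.

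Cells were split by which transcript was higher, Scgb1a1 or Sftpc. On the wild-type chip 49 cells were Scgb1a1-dominant and 17 Sftpc-dominant, and on the chip labelled knockout 46 and 15; 6 and 15 cells lay within 4-fold of equality. The wider marker lists followed the split: the median summed TPM of 12 club markers was 451912 in Scgb1a1-dominant and 4166 in Sftpc-dominant wild-type cells, and that of 13 alveolar type 2 markers 4365 and 289034. On the chip labelled knockout the club values were 451481 and 42747, and the type 2 values 10207 and 321690. Sftpc-dominant cells of that chip thus held more club transcripts than those of the wild-type chip, with a median Scgb1a1 of 35294 against 610.4 TPM; the part of this in the chip differences within a state was not tested. Sftpc-dominant cells were also shallower (medians of 2633 against 3154 genes in wild type, 3196 against 3824 in the other chip). Goblet markers were higher in Scgb1a1-dominant cells labelled knockout, at a median summed TPM of 1263 against 17.7 in wild type, and their part in the members' values was not tested.

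Members were lower in Sftpc-dominant than in Scgb1a1-dominant cells for 33 of 47 on the wild-type chip (median -0.366, all genes -0.116) and for 37 on the chip labelled knockout (-0.695, all genes -0.109). Positive differences were held by 29.8% and 21.3% of members, against 41.2% and 42.6% of all genes. By size 8 and 20 members were lower, against 9.1% and 10.9% of all genes, and 1 was higher on each chip, against 3.48% and 4.39%. The wild-type median turned positive with each cell centred (0.021), with states called from the marker lists (0.067) and in the middle tertile of depth (0.144), whereas that of the chip labelled knockout stayed negative in these. The 27 members lower on both chips included Ssr4 (-2.46 and -3.08), Tram1, which contacts the entering chain (-2.08 and -2.65), and Pdia3 (-2.19 and -2.45). Only Sec63, Dnajb9, Hyou1 and Ern1 were higher on both; Dnajb9, a co-chaperone of BiP, had 0.904 and 1.09. With the depth covariate the medians were -0.104 and -0.534 (all genes -0.019 and 0.031), with 26 and 32 of 47 members negative. The positive share was then 44.7% and 31.9% of members, against 48.6% and 51.9% of all genes. By size 6 and 18 members were lower, against 6.68% and 8.4%, and 2 on each chip higher, against 5.3% and 7.78%. Ssr4, Tram1 and Pdia3 were between -2.94 and -1.62 on both chips. Hsp90b1 hardly differed between states, at 0.008 and -0.012.

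**Figure D5:**
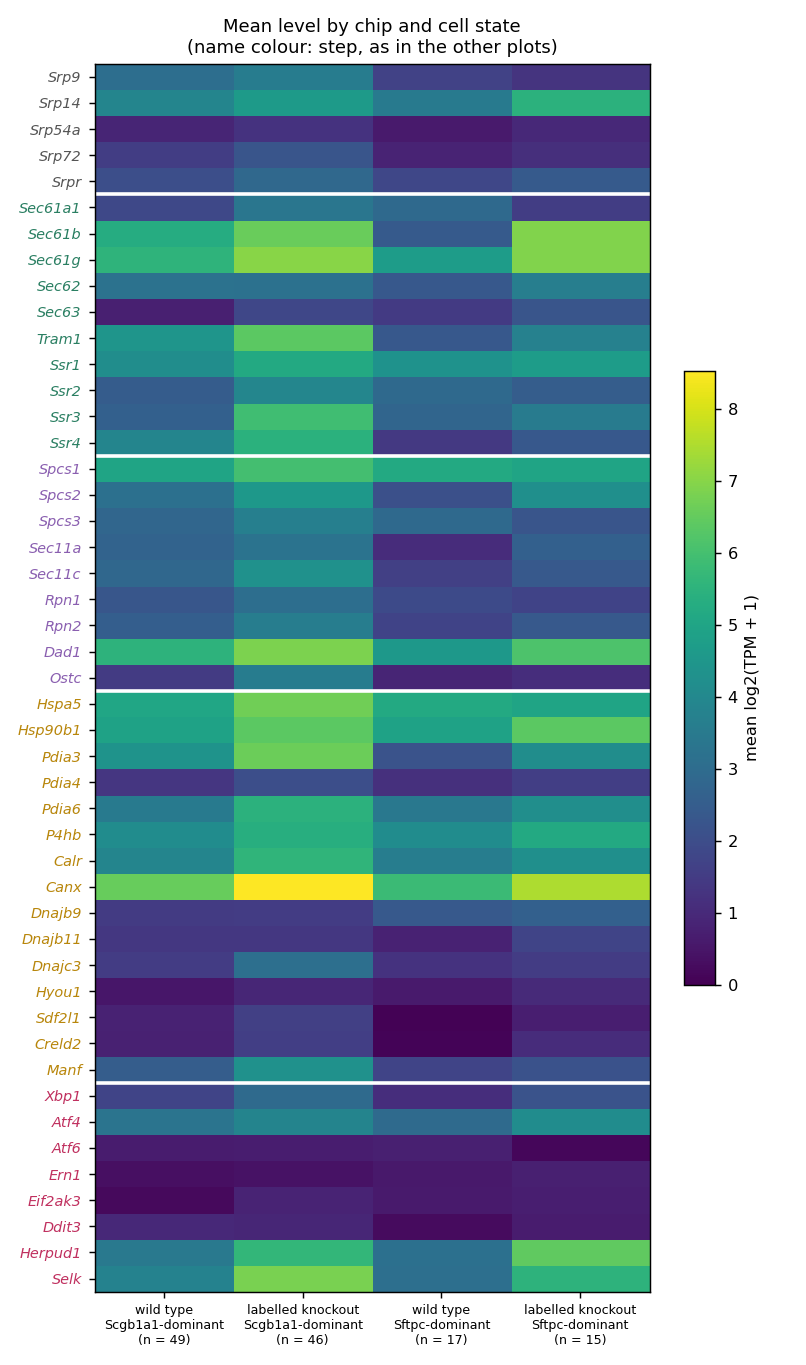
Mean log2(TPM + 1) of each member in the 4 combinations of chip and cell state, with the number of cells under each column; white lines separate targeting, translocon, signal peptidase and oligosaccharyltransferase, chaperones and stress genes, from top to bottom. Canx is brightest in all 4 columns, and Ssr4 and Tram1 are darker in both Sftpc-dominant columns than in their Scgb1a1-dominant counterparts.

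The chip difference was present in both states. Within Scgb1a1-dominant cells it was positive for 45 members, with a median of 1.08 (all genes 0.242). There 26 were higher by size against 8.52% of all genes and 0 lower against 0.2%. Within Sftpc-dominant cells it was positive for 39, against 64.9% of all genes, with a median of 0.681 (all genes 0.210). There 16 were higher against 12.6% and 1 lower, Sec61a1, against 1.73%. These values carry no depth adjustment. Cells labelled knockout were deeper in both states, with medians of 3824 against 3154 genes (Scgb1a1-dominant) and 3196 against 2633 (Sftpc-dominant). Single members varied between the states. Ssr3 differed by 3.31 in Scgb1a1-dominant and 0.788 in Sftpc-dominant cells, and Ostc by 2.09 and 0.241. Sec61b ran the other way, by 1.33 and 4.48, its detection going from 6 of 17 to 14 of 15 Sftpc-dominant cells. Sec61a1, the pore of the same channel, differed by 1.496 and -1.39. Herpud1 (2.20 and 3.30) and Selk (3.02 and 2.42) were high in both. Whether the states differ in these values was not tested, since each is 1 set of cells on 1 chip.

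Of the other 110 pathway genes 101 were detected in at least 10% of cells of a chip. The chip difference was positive for 82, 17 were higher and 0 lower by size, and the median was 0.436, or 0.154 with the depth covariate. Over all 9486 genes 76.1% were positive, 7.8% higher and 0.116% lower by size, with the median of 0.245 given above. The list medians ranged from 0.342 for other targeting and translocon genes to 0.600 for other oxidative folding genes.

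Set side by side, the levels of the members ran together in bulk and on the chips. The bulk mean level and the mean level per cell had a Spearman rho of 0.782 across the 47 members. Herpud1 had a bulk log2 fold change of 0.343 and a chip difference of 2.48, whereas Selk was at -0.020 in bulk (SE 0.137, interval -0.345 to 0.304, limma adjusted p = 0.967) and 2.88 on the chips. Ssr3 was at 0.125 and 2.69, and Canx at -0.098 and 1.91. These measures are unlike, since the chip value averages logs over cells and cells at or near 0 weigh heavily in it. As knockout over wild-type ratios of mean level, Herpud1 was at 1.28 in bulk and 2.53 on the chips. By the same ratios Selk was at 0.983 and 1.61, Ssr3 at 1.09 and 2.50, and Canx at 0.933 and 1.45. Of 13 ciliated markers, which were well above 0 in bulk, 0 and 1 were detected in at least 30% of the cells of a chip, and the age and day of the chip cells are not given, so the 2 sets were not matched.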

How the data were processed

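Bulk levels are FPKM that the authors computed; the submitters' processing notes list TopHat, Bowtie2, Cufflinks and mm10. Single-cell levels are TPM, ERCC spike-ins included, deposited as 1 table per genotype; the notes list RSEM 1.2.20, Bowtie 1.1.1 and GRCm38. Neither unit carries read counts, so depth is given as genes detected and no count test was run. The 12 genes of the bulk table with an entry marked as low or failed were left out. Genes reaching 1 FPKM in 3 or more of the 6 libraries were fitted on the log2(FPKM + 1) scale (limma 3.58.1, R 4.3.3, two-sided, eBayes with its trend and robust settings, Benjamini-Hochberg over all genes fitted, threshold 0.05). This scale understates fold changes of low genes. An exact permutation test of 3 against 3 libraries cannot go below p = 0.1. The labels do not tie libraries to separate mice, and the spread behind a p-value may be technical.

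Cells are not replicates. Chip values are means of log2(TPM + 1) over 66 and 61 cells, after 6 and 3 with fewer than 1000 genes were dropped; 2 samples labelled knockout had no matched column and are not analysed here. "All genes" are those found in 10% or more of the cells of a chip. The depth covariate, the number of other genes detected, was fitted by least squares. Doublets were removed by inspection, per the labels' protocols, and no caller was run. No cell column repeated another. Exact binomial (Clopper-Pearson) intervals are at 95% and cover counting error only. The scripts were tested on simulated data.

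The members, their steps, the pathway and marker lists, the size limit and the alternatives were chosen with earlier results of these data known. Named genes are Trp53, per step the 2 members of smallest bulk p and the one of highest level, per step the 2 members of largest chip difference and the one of largest state difference, and the 3 pathway genes of smallest bulk p. Other members were named after their values were seen. Gene positions are those of the bulk table, transcript lengths are from GENCODE and promoters from RefSeq.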

Additional observations from a re-analysis of the deposited data

Results flagged for a closer look

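Wells outside the comparisons also held members. The positive control, run off the chip for the knockout set, had 46 of the 47 members at a TPM of at least 1, with 7953 genes detected. The 3 wells labelled knockout that carry a debris or valve remark had 34, 31 and 32 members, and the wild-type well with a remark had 21. They are listed because these wells were left out of the comparisons and lie above the negative off-chip control, which had 0 members and 2 genes, with 100% of its TPM in ERCC spike-ins.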

How the results depend on the processing

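No paired analysis was possible because the bulk genotypes share no replicate number and the chip wells are not paired. The count of members past the bulk threshold was 0 under all 8 other settings and without each library in turn, while all genes past it numbered 913 with array weights and 408 without wild-type replicate 1, of 11957, and 3 or fewer elsewhere. The bulk median fold change ran from -0.031 to 0.038 when a library was left out. Non-overlapping members numbered 4 after quantile normalization (8.51%, all genes 20.1%) and from 10 to 15 when a library was left out (21.3% to 31.9%, all genes 27.7% to 35.6%); fewer libraries overlap less in any gene. Trp53 had a log2 fold change of -1.22 with array weights (limma adjusted p = 0.0064). When a library was left out, its fold change ran from -1.25 to -1.03. The limma adjusted p-values then ran from 0.0098, without wild-type replicate 1, to 0.532. P4hb changed sign with array weights (-0.021). When a library was left out, Dad1 ran from -0.087 to 0.279, P4hb from -0.017 to 0.071 and Sec61b from -0.315 to 0.127. The cause was not tested.

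The chip median of 0.978 was 1.53 and 0.443 with pseudocounts of 0.1 and 10, 0.608 in cells with at least 2000 genes, 0.398 with each cell centred, 0.483 with the depth covariate and 0.349 in the middle tertile. The 22 members higher by size became 34 and 8 with these pseudocounts (all genes 17.2% and 1.29%, medians 0.459 and 0.087), 10 with cells centred, 8 with the covariate and 7 in the middle tertile, where Ssr4 was at -0.129. The comparison restricted to genes detected in 30% to 90% of cells was chosen after seeing the data. For the state medians, wild type first, the pseudocounts gave -0.759 and -1.15 (0.1) and -0.223 and -0.243 (10), centring 0.021 and -0.384 and marker-list states 0.067 and -0.422. The wild-type state median alone was -0.186 with no minimum of genes, -0.213 at 2000 genes, -0.104 with the covariate and 0.144 in the middle tertile, so its sign is not settled. Levels under about 1 TPM are near the detection limit at this depth.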
